A study of Homo sapiens with 8 samples.

Results

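The NRF2 target genes are genes whose transcription is raised by NRF2, the stress-responsive transcription factor encoded by NFE2L2, and 31 of them were followed here across 4 human lung cancer cell lines. The rule that made the list used names and no signal, but the list was drawn up with earlier results of these data known. A gene was read from the probe sets that carried its symbol alone, and the brightest of them over all arrays stood for it. On this rule 30 of the 31 genes were measured, out of 19775 genes on the array, and 29 of them passed a minimum on the mean signal that 12300 of all genes passed. The ferritin heavy chain gene FTH1 had no probe set with its symbol alone, and the fatty acid hydroxylase gene CYP4F11 fell below the minimum.

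The established lines were A549 and H460, which carry mutant K-Ras, and H1650 and H1975, which carry mutant EGFR. From each line, side population cells (SP), which pump out a Hoechst dye, and main population cells (MP), which keep it, were separated by flow cytometric sorting. Cells of all 8 samples had been stained with the dye and sorted, and none was left unstained or unsorted. Total RNA of each population was hybridised to 1 Affymetrix U133 Plus 2.0 array, which gives 4 SP and 4 MP arrays. A549 and H460 are also known as lines with a mutated KEAP1, a genotype that these arrays do not read.

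In unstressed cells NRF2 is held by KEAP1, an adaptor that hands it to a CUL3 and RBX1 ubiquitin ligase for destruction. Oxidants and electrophiles modify KEAP1, NRF2 then accumulates, pairs with a small MAF protein and binds the antioxidant response element. Its targets make glutathione and thioredoxin, supply NADPH, reduce quinones and carbonyls and handle heme and iron. In the lung the program is known for protecting the airway against inhaled oxidants, and in lung tumours it is often constitutively active.

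Levels are given as log2 MAS5 signal, a scale on which a difference of 1 is 2-fold. No level is compared between different genes, since probe sets differ in their brightness. The keratins KRT8, KRT18 and KRT19, markers of epithelial cells, were between 11.69 and 14.33 on every array. The adhesion genes EPCAM and CDH1 were low in H460, at 5.97 and 5.25 for EPCAM and 1.61 and 0.63 for CDH1, and of the leukocyte markers PTPRC lay between 3.14 and 4.72, CD3E between 3.36 and 6.43 and CD14 between 7.39 and 9.42. The fibroblast collagen gene COL1A1 was at 12.94 and 13.00 in H1975 against 8.85 to 9.67 in the other lines. COL1A2 was at 9.21 and 9.10 in H1975 against 2.56 to 6.19. The fibroblast marker DCN overlapped, at 7.05 and 6.80 in H1975 against 6.17 to 7.05. Of the endothelial markers, PECAM1 lay between 7.02 and 7.54 on all arrays and CDH5 between 1.34 and 6.32. For ABCG2, the dye efflux pump, SP over MP gave a log2 ratio of -0.70 in H1650, whereas A549, H460 and H1975 had ratios of 1.08, 0.36 and 1.17. The array labelled SP in H1650 therefore went against its label for this pump, and results on SP are also given without H1650.

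The antioxidant response element is written here by its core, TGACNNNGC, where N is any base. It was searched on both strands of the RefSeq promoter windows (GRCh38.p14), which run from 250 bases before to 50 after each start site. Of the 25 listed genes with a window, 9 held the core (36.0%), against 16.1% of all 27305 genes with a window. Counted by window, the shares were 32.3% of 31 and 13.3% of 35116. Among protein-coding genes alone, 17.9% of 15842 genes and 13.8% of 22198 windows held it. The stricter form TGACTCAGC, which contains the AP-1 motif TGACTCA, occurred in the windows of ME1 and PIR, and in 0.561% of all windows. The 6 stretches that follow show the core in its surroundings for genes of different roles, with the core in capitals and 10 bases on either side.
GCLM: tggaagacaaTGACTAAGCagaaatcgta
GPX2: atccccaggaTGACTTAGCaaaaacaggt
TXNRD1: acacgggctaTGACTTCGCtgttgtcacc
ME1: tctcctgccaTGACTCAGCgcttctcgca
EPHX1: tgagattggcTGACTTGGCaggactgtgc
PIR: agcctcaccgTGACTCAGCgcttcgcggc
The first base of the transcript is counted as position 1. The GCLM stretch is the plus strand of chr1:93909446-93909474, opposite to the gene, with the core at positions -34 to -26, and the GPX2 stretch is the plus strand of chr14:64942849-64942877, also opposite to the gene, at -122 to -114. TXNRD1 is shown on the plus strand at chr12:104215670-104215698, with the core at -99 to -91, and EPHX1 on the plus strand at chr1:225825266-225825294, at -78 to -70, both in the direction of the gene. ME1 is shown on the minus strand at chr6:83431170-83431198, in the direction of the gene, at -137 to -129. In PIR the core lay within the transcript, at positions 27 to 35, on the plus strand of chrX:15493289-15493317, opposite to the gene. PGD, CBR1 and CYP4F11 held the core as well. These matches describe letters in a window and do not show binding. AKR1B10, HMOX1, SLC7A11, GSR, PRDX1 and FTH1 were not searched here.

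Taken over the lines, the targets were brighter in A549 and H460 than in H1650 and H1975. The log2 difference between the mean of the first 2 lines and that of the others had a median of 1.39 over the 29 tested targets and was above 0 in 27 of them. Over all 12300 genes the median was -0.02, with 5980 above 0. All 4 arrays of A549 and H460 were above all 4 of H1650 and H1975 for 24 of the 29 targets, against 12% of all genes, and for 0 targets they were all below, against 13.6% of all genes. With a mean difference of at least 2-fold in addition, 19 targets remained, against 5.46% of all genes. The 5 targets whose arrays overlapped were GPX2, HMOX1, BLVRB, OSGIN1 and NFE2L2. The count of 24 was the same after quantile normalization and after setting all arrays to the same median.

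**Figure D1:**
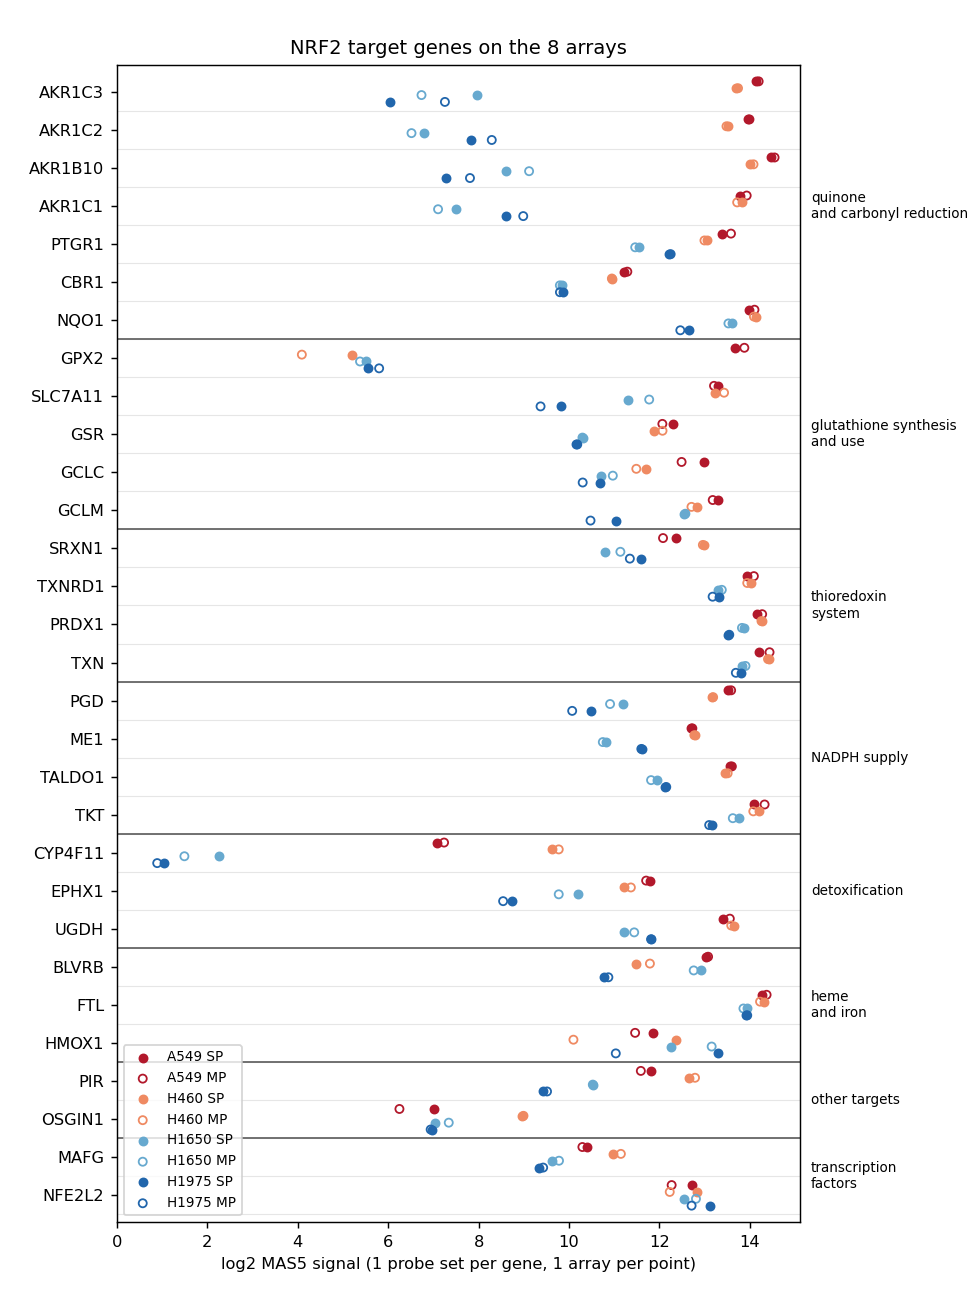
Each point is the log2 MAS5 signal of 1 array (x axis) for 1 of the 30 measured NRF2 target genes (y axis, grouped by role), filled for SP, open for MP, coloured by line. For 24 of the 29 genes tested, the red and orange points of A549 and H460 all lie to the right of the blue points of H1650 and H1975.

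**Figure D2:**
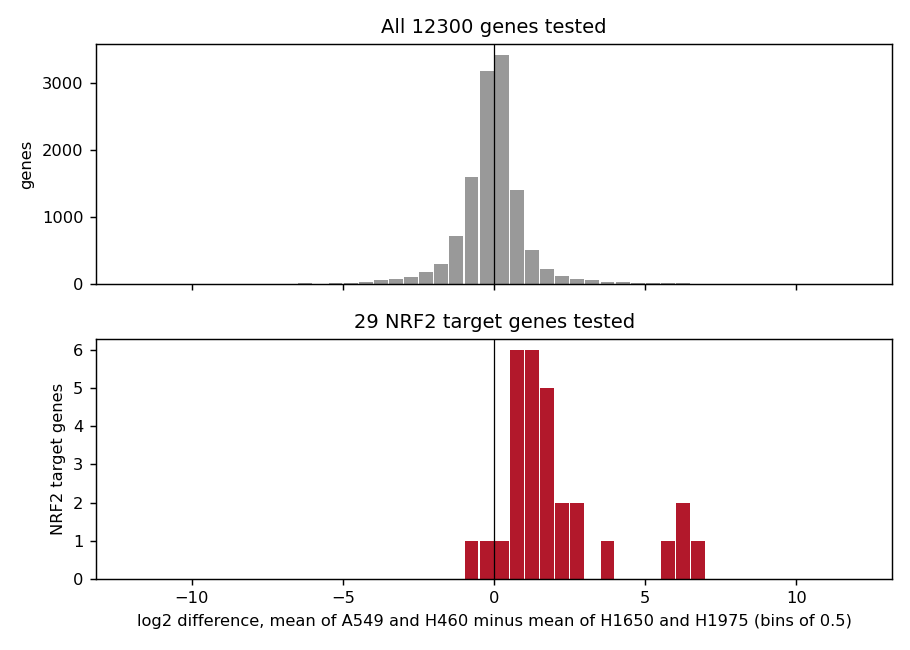
Number of genes (y axes) by log2 difference of A549 and H460 from H1650 and H1975 (x axis, bins of 0.5), for all 12300 genes tested above and for the 29 NRF2 target genes below. All genes centre near 0 (median -0.02), while 27 of the 29 targets lie above 0 (median 1.39).

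With the line as the unit there were 2 lines on each side, and limma on the 4 line means called 0 of the 29 targets higher and 0 lower at an adjusted p under 0.05, as it did for all genes (0% in either direction). Unadjusted, 24 targets and 1154 of the 12300 genes had a p under 0.05. The lowest adjusted p among the targets was 0.0825. With the line as a random block over all 8 arrays in place of line means, 8 targets were called higher, against 0.415% of all genes, and 0 lower, against 0.285%. The 8 were AKR1B10, AKR1C1, AKR1C2, AKR1C3, GSR, PGD, TALDO1 and UGDH. The K-Ras and EGFR mutations divide the lines in the same way, so they and any other feature that these line groups share cannot be told apart.

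Between single lines the spread was that of the SP and MP arrays around the line, so these tests say whether the 2 arrays of one line differed from the 2 of another, not how lines of a genotype vary. The limma F test over the 4 lines called 27 of the 29 targets, against 76.3% of all genes, and left out HMOX1 (adjusted p = 0.281) and NFE2L2 (adjusted p = 0.236). Against H1650, 25 targets were higher and 0 lower in A549, where 23.4% and 23% of all genes were, and 24 were higher and 1 lower in H460, where 26.4% and 27% were. Against H1975, 26 targets were higher and 0 lower in A549 (24.1% and 25.8% of all genes), and 26 were higher and 1 lower in H460 (24.3% and 28.5% of all genes). The targets lower in H460 were BLVRB against H1650 and GPX2 against H1975, the latter at a limma adjusted p of 0.0491. Both lines were below the minimum of 6.01 for GPX2, which passed it through A549 alone, and that call was lost under 8 changes of the processing and without any of 5 single arrays. A549 and H460 differed from each other in fewer targets. There 5 were higher in A549 (PTGR1, GCLM, GCLC, GPX2 and BLVRB) and 4 lower (SRXN1, OSGIN1, PIR and MAFG), against 20.4% and 17.8% of all genes. H1650 exceeded H1975 in 10 targets and was below it in 6, against 22.8% and 25.1% of all genes. The highest line was A549 for 17 targets, H460 for 10, and H1650 and H1975 for 1 each, while H1975 was lowest for 16. This order was not counted over all genes, so these counts have no share to be read against.

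The aldo-keto reductases, which reduce aldehydes, ketones and steroids with NADPH, showed the widest differences of the tested list. AKR1C3, a prostaglandin and androgen reductase, was at 14.13 in SP and 14.20 in MP of A549 and at 13.70 and 13.74 in H460, against 7.97 and 6.74 in H1650 and 6.04 and 7.26 in H1975. The lowest array of A549 and H460 was thus 5.73 above the highest of the others, and the log2 difference of the means was 6.94 (SE 0.42, limma adjusted p = 0.0825). In H1975 SP its signal was at the median of that array, 6.04, so the size of this difference is set against a dim signal. AKR1B10, a retinal and lipid aldehyde reductase, was at 14.47 and 14.55 in A549, 14.01 and 14.08 in H460, 8.61 and 9.12 in H1650, and 7.27 and 7.81 in H1975. Its log2 difference was 6.08 (SE 0.54, limma adjusted p = 0.0909). Both genes were near the top of the array's range in A549 and H460, where A549 and H460 did not pass the test against each other (limma adjusted p = 0.484 for AKR1C3 and 0.0543 for AKR1B10). H1650 was above H1975 for AKR1B10 by 1.33 (limma adjusted p = 0.000471).

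AKR1C1 and AKR1C2, which reduce progesterone and related steroids, behaved alike on the arrays. AKR1C1 was at 13.77 and 13.93 in A549, 13.82 and 13.72 in H460, 7.49 and 7.10 in H1650 and 8.60 and 8.99 in H1975. AKR1C2 was at 13.96 and 13.99, 13.52 and 13.48, 6.80 and 6.52, and 7.82 and 8.29 in the same order. The log2 differences were 5.77 (SE 0.58, limma adjusted p = 0.115) and 6.38 (SE 0.58, limma adjusted p = 0.0909), and for both genes H1650 was the lowest line, below H1975 (limma adjusted p = 0.000579 and 0.000748). The probe sets that stood for them have names ending in _x_at, which marks probes that can bind near-identical transcripts, so their signals may not be separate and the values of each gene are uncertain. A dimmer AKR1C1 probe set without that mark was at 11.64 and 11.12 in A549, 8.63 and 5.65 in H460, 5.73 and 5.21 in H1650 and 4.74 and 2.20 in H1975. It had the same order of line groups, with a difference of 4.79, but unlike the brightest one it was higher in SP in every line, with signals below the minimum on 5 of the 8 arrays. AKR1C1, AKR1C2 and AKR1C3 lie together on chromosome 10 (GRCh38.p14), at 4963415 to 4983283, 4987775 to 5018000 and 5048781 to 5107686. The 60 bases before the start site are shown for all 3 because of this likeness, with the longest run that AKR1C1 and AKR1C2 share there, 55 bases, in capitals.
AKR1C1: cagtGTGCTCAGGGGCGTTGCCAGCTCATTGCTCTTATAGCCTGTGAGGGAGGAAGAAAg
AKR1C2: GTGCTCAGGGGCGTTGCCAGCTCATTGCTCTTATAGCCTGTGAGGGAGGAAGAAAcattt
AKR1C3: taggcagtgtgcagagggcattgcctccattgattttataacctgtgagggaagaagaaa
They are chr10:4963355-4963414 on the plus strand, chr10:5003858-5003917 on the minus strand and chr10:5048721-5048780 on the plus strand, each in the direction of its gene. Over the 250 bases before the start, AKR1C1 and AKR1C2 matched at 245 of 246 aligned bases (99.6%), and each matched the 2 AKR1C3 windows at 53.7% to 58.1%. None of these windows held TGACNNNGC.

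The other reductases differed less. NQO1, the quinone reductase most often used as a readout of NRF2, was at 13.98 and 14.10 in A549, 14.14 and 14.09 in H460, 13.60 and 13.53 in H1650 and 12.66 and 12.46 in H1975. The line order was H460, A549, H1650, H1975, with no call between the first pair (limma adjusted p = 0.575) and calls between all others. The log2 difference of the line groups was 1.02 (SE 0.36, limma adjusted p = 0.517), and without H1975 it was 0.51. PTGR1, which reduces enones, differed by 1.39 (SE 0.34), and CBR1, a carbonyl reductase, by 1.28 (SE 0.33), in both cases with no overlap of arrays.

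Of the genes for glutathione, 4 of 5 had all arrays of A549 and H460 above the rest, against 12% of all genes. SLC7A11, the cystine importer that feeds glutathione synthesis, was at 13.31 and 13.21 in A549, 13.23 and 13.43 in H460, 11.30 and 11.77 in H1650, and 9.82 and 9.37 in H1975. Its log2 difference was 2.73 (SE 0.68, limma adjusted p = 0.400), or 1.76 without H1975, and H1650 was above H1975 by 1.94 (limma adjusted p = 0.000258). GSR, which regenerates reduced glutathione, was between 11.89 and 12.29 in A549 and H460 and between 10.16 and 10.31 in H1650 and H1975, a difference of 1.84 (SE 0.28, limma adjusted p = 0.222). H1650 and H1975 could not be separated for GSR (limma adjusted p = 0.447).

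The subunits of glutamate cysteine ligase, the rate-limiting enzyme of glutathione synthesis, fell in the same line order, with their largest steps at different places. Its catalytic subunit gene GCLC was at 12.99 and 12.49 in A549, 11.71 and 11.49 in H460, 10.71 and 10.97 in H1650, and 10.68 and 10.30 in H1975, so that A549 stood above H460 by 1.14 (limma adjusted p = 0.00231). Its modifier subunit gene GCLM was at 13.30 and 13.18, 12.83 and 12.71, 12.55 and 12.58, and 11.05 and 10.48 in that order. For GCLM the low line was H1975 alone, and its group difference of 1.34 (SE 0.65) was 0.44 without H1975 and 2.24 without H1650. That of GCLC was 1.51 (SE 0.47), and 0.93 without A549. For GCLM, H460 and H1650 differed by 0.21 (limma adjusted p = 0.272). The GCLM gap between the lowest array of A549 and H460 and the highest of the others was 0.13. GPX2, an epithelial glutathione peroxidase, was at 13.68 and 13.88 in A549, 5.20 and 4.09 in H460, 5.51 and 5.38 in H1650, and 5.55 and 5.80 in H1975. It was thus high in A549 and low in the other 3 lines. Its group difference was 3.65 (SE 3.08, limma adjusted p = 0.731), and without A549 it was -0.91, with all signals of the other lines below the minimum.

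Of the 4 thioredoxin genes, TXNRD1, TXN and PRDX1 were close to the top of the arrays' range, which ended between 14.26 and 14.67. TXNRD1, which reduces thioredoxin, was between 13.94 and 14.09 in A549 and H460 and between 13.18 and 13.38 in the others. TXN, thioredoxin itself, lay between 14.19 and 14.44 against 13.69 and 13.90, and the peroxidase PRDX1 between 14.16 and 14.27 against 13.51 and 13.86. These are log2 differences of 0.71 (SE 0.14), 0.55 (SE 0.13) and 0.56 (SE 0.16), with no overlap of arrays for any of them. Of all genes, 12% were separated in this direction. SRXN1, sulfiredoxin, which repairs overoxidised peroxiredoxins, was at 12.38 and 12.08 in A549, 13.00 and 12.96 in H460, 10.79 and 11.14 in H1650 and 11.60 and 11.35 in H1975. It was the gene of this group called between A549 and H460, with A549 lower (log2 difference -0.75, limma adjusted p = 0.0095).

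All 4 genes for NADPH supply were above in A549 and H460 with no overlap, against 12% of all genes. PGD, a dehydrogenase of the oxidative pentose phosphate pathway, was at 13.51 and 13.59 in A549, 13.15 and 13.19 in H460, 11.19 and 10.91 in H1650, and 10.49 and 10.07 in H1975, a difference of 2.70 (SE 0.36, limma adjusted p = 0.186). TALDO1, the transaldolase of its non-oxidative arm, was between 13.46 and 13.60 against 11.82 and 12.15, a difference of 1.52 (SE 0.20). TKT, transketolase, was at 14.08 to 14.33 against 13.10 to 13.77, a difference of 0.76 (SE 0.23). PGD followed the order A549, H460, H1650, H1975, while ME1, malic enzyme, was lowest in H1650. ME1 was at 12.70 and 12.73 in A549, 12.78 and 12.77 in H460, 10.82 and 10.75 in H1650, and 11.61 and 11.60 in H1975, with H1650 below H1975 (log2 difference -0.82, limma adjusted p = 0.000487).

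Among the detoxification genes, UGDH, which makes the UDP-glucuronate used in conjugation, was between 13.40 and 13.65 in A549 and H460 and between 11.23 and 11.82 in the others, a difference of 1.97 (SE 0.25, limma adjusted p = 0.181). EPHX1, microsomal epoxide hydrolase, was at 11.79 and 11.71 in A549, 11.21 and 11.37 in H460, 10.19 and 9.77 in H1650 and 8.73 and 8.54 in H1975, a difference of 2.21 (SE 0.57). The gene below the minimum, CYP4F11, was at 7.08 and 7.24 in A549, 9.61 and 9.77 in H460, 2.26 and 1.49 in H1650, and 1.03 and 0.89 in H1975. It was not tested, and its arrays fell in the same order of line groups with H460 highest.

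The heme and iron genes were the group with the least separation, in 1 of 3 tested, against 12% of all genes. The groups are small and were not tested against each other. HMOX1, the inducible heme oxygenase, was at 11.85 and 11.46 in A549, 12.37 and 10.10 in H460, 12.26 and 13.16 in H1650 and 13.29 and 11.04 in H1975. Its SP and MP arrays differed within H460 and H1975 by more than the line means did, and its group difference was -0.99 (SE 0.32, limma adjusted p = 0.478). BLVRB, biliverdin reductase B, was high in A549 (13.03 and 13.08) and H1650 (12.92 and 12.76) and lower in H460 (11.48 and 11.79) and H1975 (10.77 and 10.87). It was the target lower in H460 than in H1650 (log2 difference -1.21, limma adjusted p = 0.000201). FTL, the ferritin light chain, was at 14.23 to 14.37 in A549 and H460 and 13.86 to 13.94 in the others, a difference of 0.38 (SE 0.12).

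The remaining targets were highest in H460. PIR, an iron-binding nuclear protein, was at 11.81 and 11.59 in A549, 12.67 and 12.79 in H460, 10.53 and 10.53 in H1650 and 9.43 and 9.51 in H1975, and A549 was below H460 (log2 difference -1.03, limma adjusted p = 0.000803). OSGIN1, an oxidative stress response gene, was at 8.96 and 8.99 in H460 and between 6.25 and 7.34 on all other arrays. MAFG, a small MAF partner of NRF2, was at 10.40 and 10.30 in A549, 10.98 and 11.15 in H460, 9.63 and 9.78 in H1650, and 9.34 and 9.43 in H1975, again with A549 below H460 (log2 difference -0.72, limma adjusted p = 0.0062).

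The mRNA of NRF2 itself did not follow its targets. NFE2L2 was at 12.72 and 12.27 in A549, 12.84 and 12.23 in H460, 12.54 and 12.81 in H1650, and 13.12 and 12.71 in H1975. The ranges of all 4 lines overlapped, no pair of lines passed the test, and the group difference was -0.28 (SE 0.20, limma adjusted p = 0.686). Of 9 other regulators of NRF2, 8 were measured, and limma called 0 of them between the line groups, as it did for all genes (0%). Unadjusted, 2 of the 8 and 1154 of the 12300 genes had a p under 0.05 in that test. Between single lines the regulators did differ, and the limma F test over the 4 lines called 8 of the 8, against 76.3% of all genes. All arrays of A549 and H460 were higher for 1 regulator, against 12% of all genes. They were all lower for 2 regulators, against 13.6% of all genes. The line means of KEAP1 were 10.43, 10.68, 10.56 and 11.24 in the order A549, H460, H1650, H1975. For KEAP1, H1975 was above each other line (limma adjusted p = 0.00837 for A549, 0.0354 for H460 and 0.0176 for H1650). SQSTM1, the autophagy receptor p62, which binds KEAP1 and is also an NRF2 target, was the regulator with all arrays higher in A549 and H460, at 12.78 to 13.56 against 11.55 to 12.23, a difference of 1.36 (SE 0.27, limma adjusted p = 0.338). The small MAF gene MAFF and the ligase subunit gene RBX1 had all arrays of A549 and H460 lower, with differences of -1.07 (SE 0.39) and -0.48 (SE 0.20). BACH1, a repressor at antioxidant response elements, overlapped, with a difference of -1.23 (SE 0.63). NFE2L3 overlapped as well, with a difference of -1.39, while CUL3 at 0.13 and NFE2L1 at 0.03 were nearly level between the line groups.

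**Figure D3:**
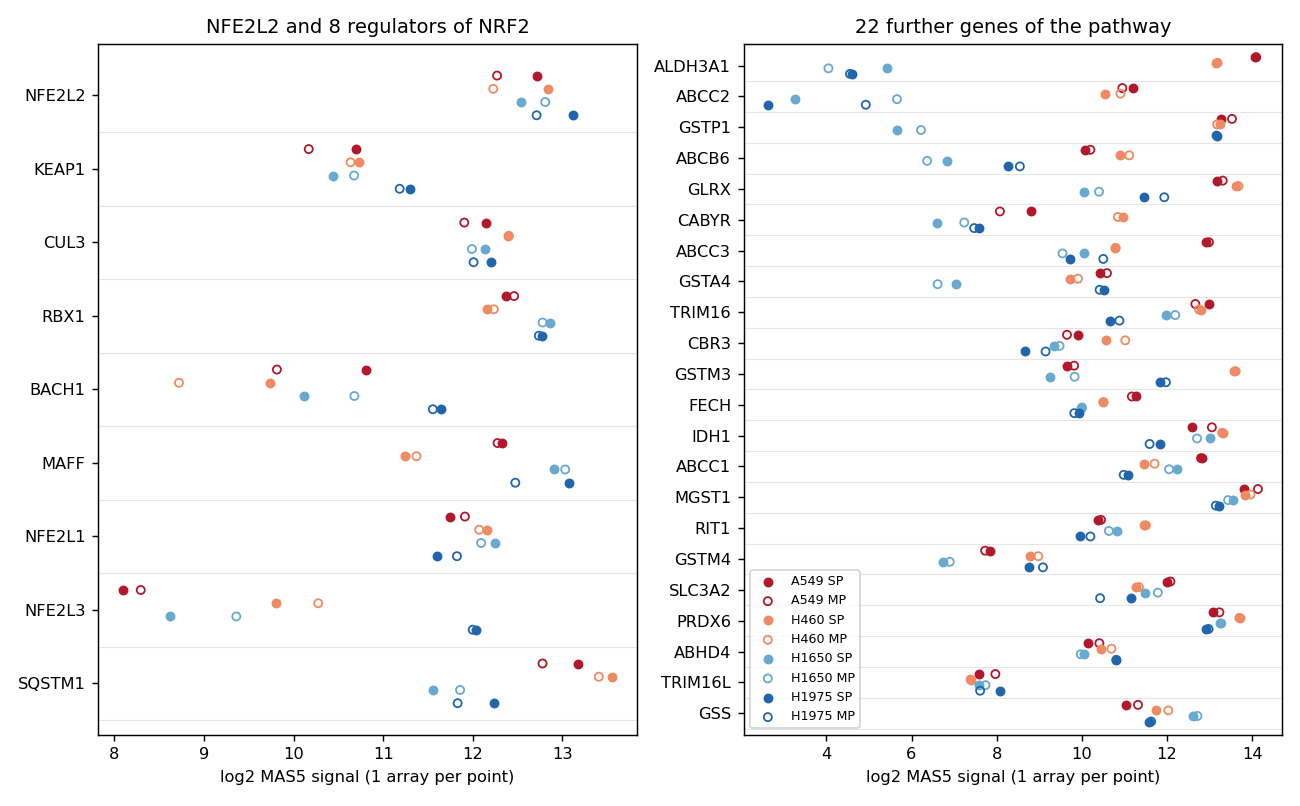
Log2 MAS5 signal (x axes) of NFE2L2 and 8 regulators of NRF2 (left) and of 22 further genes of the pathway (right, ordered by the difference between line groups), with 1 point per array, filled for SP and open for MP. NFE2L2 and KEAP1 overlap between the line groups, whereas ALDH3A1 and ABCC2 at the top right do not.

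A second list held 27 further genes of the pathway, of which 24 were measured and 22 passed the minimum. Of these 22, 20 had a difference above 0, with a median of 0.94, 10 had all arrays of A549 and H460 above the rest (12% of all genes) and 8 of those by at least 2-fold (5.46% of all genes). Limma called 0 of the 22 between line groups, with 6 at an unadjusted p under 0.05, as were 1154 of the 12300 genes. ALDH3A1, an aldehyde dehydrogenase, was at 14.07 and 14.09 in A549, 13.15 and 13.19 in H460, 5.43 and 4.05 in H1650 and 4.59 and 4.56 in H1975. The conjugate export pump ABCC2 was between 10.55 and 11.20 against 2.64 and 5.66. Both genes were below the minimum of 6.01 on every array of H1650 and H1975, so no size is given for these differences, which were the largest of the list. Both passed the minimum through A549 and H460 alone and are among the 10 and the 8 counted above. GSTP1, a glutathione transferase, came next with a difference of 3.74, but its arrays overlapped. It was at 5.67 and 6.22 in H1650 and between 13.16 and 13.53 in A549, H460 and H1975. ABCB6, GLRX and CABYR followed at 3.07, 2.48 and 2.45, with no overlap.

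The comparison was read against genes with no known tie to NRF2 and against other probe sets. Of 10 reference genes, 8 were measured, with differences from -0.06 to 0.62 and a median of 0.21, and 4 of the 8 had all arrays of A549 and H460 above the rest. A shift of up to 0.62 with separated arrays thus occurred in genes such as GUSB, and FTL, TXN and PRDX1 lay within that range. Of the 1352 genes with a mean log2 signal of at least 12, 20.2% were separated in this direction, against 11 of the 13 targets as bright. In the 14 targets with over 1 probe set above the minimum, all 20 other probe sets had a difference of the same sign as the brightest, and 16 of them a larger one. The minimum shaped this agreement in part. A probe set of AKR1C1 and one of MAFG were dim in H1650 and H1975 and passed it through A549 and H460. Below the minimum both signs occurred, and GCLC, PGD and TXNRD1 each had a probe set there with the opposite sign. The dimmer NQO1 probe sets gave 1.74 and 1.75 in place of 1.02, and those of TKT gave 1.21 and 1.69 in place of 0.76. The brightest probe sets of NQO1 and TKT were between 13.98 and 14.33 in A549 and H460, and whether the scanner's upper range narrowed their differences was not tested. With the mean of all probe sets of a gene, those below the minimum included, the difference was smaller for PGD (1.01), TXNRD1 (0.14), AKR1C1 (3.82), GCLC (0.82) and TXN (0.29), and larger for TKT (1.22) and MAFG (2.05). After quantile normalization it was 0.14 for FTL, 0.30 for PRDX1 and 0.32 for TXN.

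**Figure D4:**
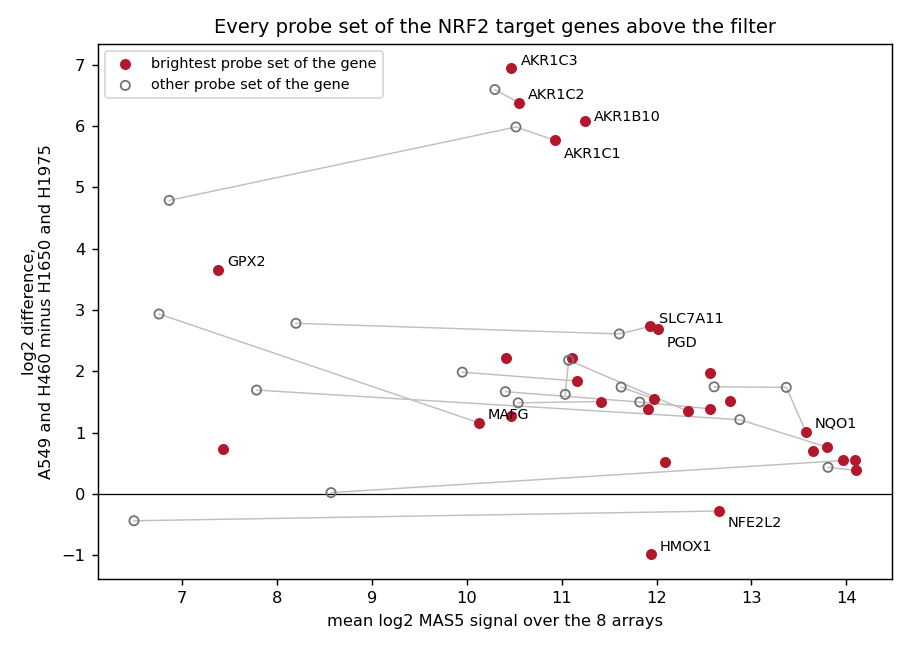
Log2 difference of A549 and H460 from H1650 and H1975 (y axis) against mean log2 MAS5 signal over the 8 arrays (x axis) for every probe set of the NRF2 target genes above the minimum, with lines joining probe sets of one gene. All 20 other probe sets (open) lie on the same side of 0 as the brightest of their gene (red), and 16 of them lie further from 0.

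SP was then compared with MP within lines, the contrast for which the cells had been sorted. With the line as a block, limma called 0 of the 29 targets higher in SP and 0 lower, as for all 12300 genes (0% in each direction). Unadjusted, 372 genes and 1 target had a p under 0.05. The mean log2 ratio of SP over MP had a median of 0.0076 over the targets and -0.017 over all genes. Without H1650 the targets' median was 0.00093 and limma again called 0 targets, while it called 23 genes higher and 2 lower in SP.

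Each line gave 1 SP and 1 MP array, so ratios within a line carry no test. HMOX1 had the widest ratios, at 2.27 in H460, 2.26 in H1975, 0.39 in A549 and -0.90 in H1650. It was higher in SP in 3 lines and lower in H1650, with a mean of 1.00 ± 1.55 (SD, 4 lines), and leaving H1650 out the mean was 1.64 (limma adjusted p = 0.122). NFE2L2 ran the same way at 0.45, 0.61, -0.27 and 0.41 in A549, H460, H1650 and H1975, with a mean of 0.30 ± 0.39 (SD, 4 lines) and 0.49 without H1650 (limma adjusted p = 0.0774). GCLC had ratios of 0.50, 0.22, -0.26 and 0.37 in the same order. These 3 genes belonged to 5 targets (17.2%) with a ratio below 0 in H1650 and above 0 in every other line, as for ABCG2, and 13.5% of all genes shared that pattern. The reverse pattern held for 3 targets (10.3%), against 14.2% of all genes. With the H1650 labels exchanged, NFE2L2 passed the test, at a mean of 0.44 (limma adjusted p = 0.0235), and so did 1.56% of all genes in that direction, with 0.146% and 0 targets in the other. The exchange was chosen with earlier results of these data known. It turns a gene with a ratio below 0 in H1650 alone to ratios above 0 in every line. Passing under it is therefore no separate evidence for NFE2L2. These NFE2L2 values come from its brightest probe set. A dimmer one above the minimum was higher in SP in every line, H1650 included (7.05 against 5.77), with a mean ratio of 1.20. Its MP signals in A549, H460 and H1650 were below the minimum, so the direction of NFE2L2 in H1650 is uncertain.

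AKR1B10 was the only target lower in SP in all 4 lines (3.45% of the targets), against 6.48% of all genes. Its ratios were -0.075, -0.068, -0.50 and -0.54 in A549, H460, H1650 and H1975, averaging -0.30 with an SD of 0.26 (limma adjusted p = 0.945). Higher in SP in all 4 lines were 0 targets, against 3.27% of all genes. AKR1C3 moved in opposite ways where it was dim, at 1.23 in H1650 and -1.21 in H1975, and stayed at -0.06 and -0.04 in A549 and H460. At least 2-fold higher in SP were 0 targets in A549 (2.87% of all genes), 2 in H460 (1.98%), namely HMOX1 and GPX2, 1 in H1650 (1.02%), which was AKR1C3, and 1 in H1975 (1.78%), which was HMOX1. At least 2-fold lower in SP was 1 target in H1975 (2.36% of all genes), again AKR1C3, and 0 in A549 (1.41%), H460 (1.42%) or H1650 (2.02%). The GPX2 ratio of 1.11 in H460 came from signals of 5.20 and 4.09, both below the minimum. Apart from HMOX1, GPX2, AKR1C3 and OSGIN1, whose ratio in A549 was 0.76, the ratios of the tested targets stayed between -0.54 and 0.61. The H1650 ratio differed from that of the other lines in 0 targets by limma, and in 0 of all genes. Unadjusted, 2 targets and 1354 of the 12300 genes had a p under 0.05 in that test. The lowest limma adjusted p of a target was 0.383.

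**Figure D5:**
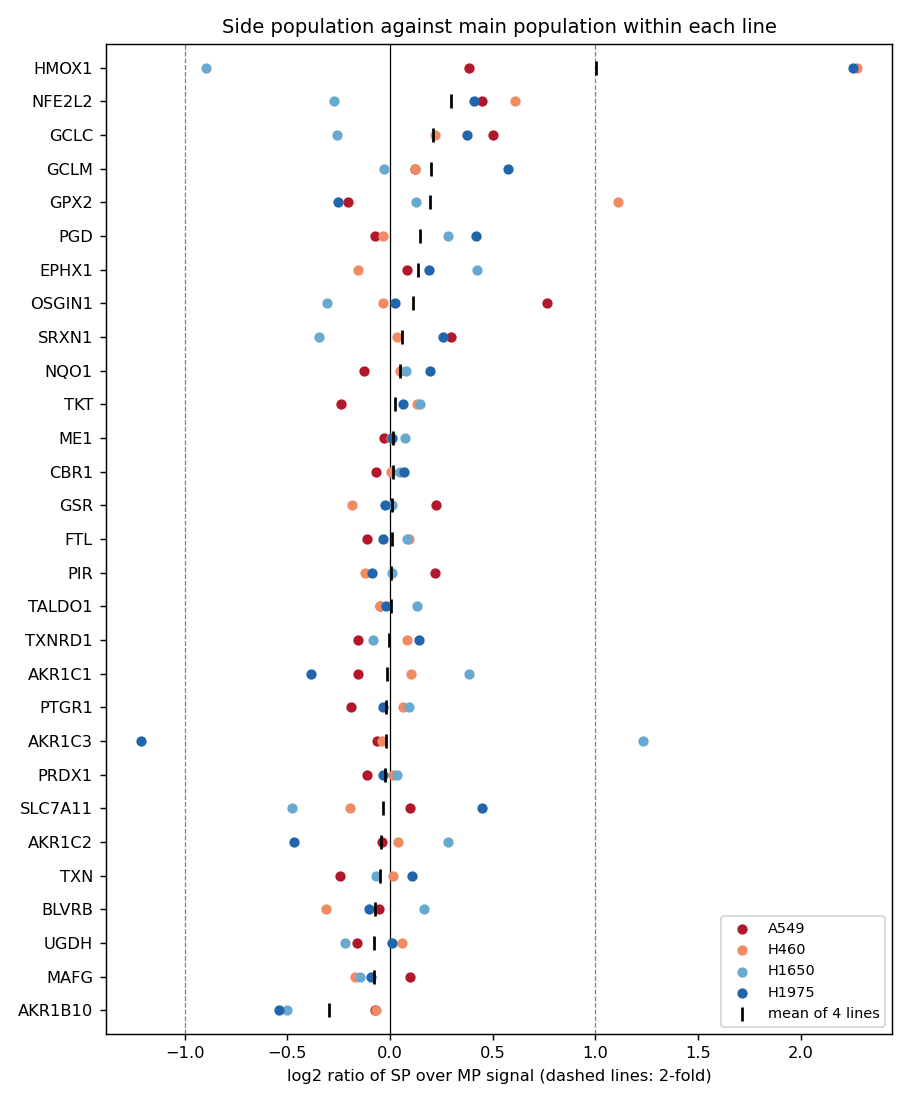
Log2 ratio of SP over MP signal (x axis) for each of the 29 tested NRF2 target genes (y axis, ordered by the mean), with 1 coloured point per line, a black tick for the mean of the 4 lines and dashed lines at 2-fold. HMOX1 reaches 2.27 and 2.26 in H460 and H1975 and -0.90 in H1650, while most other genes lie near 0.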

How the data were processed

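The authors hybridised biotinylated cRNA of 8 samples to Affymetrix U133 Plus 2.0 arrays, with GCOS 1.4 and MAS5 named in the submitters' processing notes. The deposited values are log2 MAS5 signals, with each array scaled to the same trimmed mean and genes not centred. Detection calls were not used here. Of 54675 probe sets, 41097 carried 1 gene symbol in the platform annotation, 1801 several and 11777 none, and the brightest probe set with 1 symbol stood for each of 19775 genes. Genes with a mean log2 signal of at least 6.01, the median of all probe sets, were tested (12300). The 30 measured targets had 60 probe sets. All 31 targets and the regulators were named, and of the further pathway genes the 6 with the largest differences between line groups. Members and lists were chosen with earlier results of these data known.

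Limma 3.58.1 in R 4.3.3 was used with a trended variance and Benjamini-Hochberg adjustment over all genes. Lines were compared with population as a term, line groups on line means, and SP with MP with the line as a block. The arrays are paired by line. The deviations of SP and MP arrays of a line correlated at 0.887 to 0.940, and each SP array matched the MP array of its own line best. The labels name no separate cultures, so p-values measure only the spread between these samples, which may be technical, and 8 arrays limit the precision. The fits were tested on simulated data. Alternatives changed the treatment of dim signals, the normalization, the filter, the probe set, the variance model, the threshold and the arrays used, and the counts of separated arrays under them were added after seeing the data. Array medians were 5.92 to 6.29. The 3′ over 5′ log2 difference of ACTB was 0.52 to 0.65 in A549 and H460 and 0.23 to 0.52 in H1650 and H1975, so it was higher in the first line group. That of GAPDH was -0.18 to -0.03, with overlap of the line groups. Whether the ACTB difference bears on the comparison of line groups was not tested. Promoter windows and gene positions are from RefSeq, GRCh38.p14.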

Additional observations from a re-analysis of the deposited data

Results flagged for a closer look

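In 90 groups of 4 values (each target's SP arrays, MP arrays and ratios), 3 had a value set apart from the other values by Dixon's criterion, and chance alone gives about 1 in 20. GPX2 in A549, at 13.68, stood apart from the other SP arrays. OSGIN1 in H460, at 8.96, did so too. The SP over MP log2 ratio of TALDO1 in H1650, at 0.13, stood apart from the ratios of the other lines.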

How the results depend on the processing

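The median line difference over the targets stayed between 1.35 and 1.57, and the count of separated targets between 22 and 26, under all alternatives run for them. Higher in A549 and H460 by limma on line means were 1 target (AKR1C3, and 4 genes in all) with a minimum log2 signal of 8, 3 (of 23 genes) at an adjusted p under 0.1 and 8 (of 51 genes) with the line as a random block, in place of 0. Higher in A549 than H460 were 3 targets in place of 5 with equal medians or without a variance trend, and 10 at an adjusted p under 0.1. Lower in H460 than H1650 were 2 with the mean of all probe sets, in place of 1. Lower in H460 than H1975 were 0 in place of 1 (GPX2) with a floor of 32, a pseudocount of 16, quantile normalization, equal medians, no filter, a minimum of 8, no trend or adjustment over all 6 contrasts. Leaving out 1 array at a time gave 3 (without A549 MP or an H460 array) to 8 (without an H1650 array) targets higher in A549 than H460, and 2 (without A549 MP or H460 MP) to 4 lower. It gave 0 to 2 lower in A549 than H1650 (2 without H1650 SP), 0 to 1 lower in A549 than H1975 (1 without an H1650 array), 1 to 3 lower in H460 than H1650 (2 without H460 SP, 3 without H1650 SP), and 0 to 2 lower in H460 than H1975 (2 without an H1650 array, 0 without an A549, an H1975 or the H460 MP array).

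With the H1650 labels exchanged, 1 target (NFE2L2, of 192 genes) was higher in SP in place of 0, and in H1650 itself 0 in place of 1 were at least 2-fold higher and 1 in place of 0 at least 2-fold lower, the last also after quantile normalization. This exchange was chosen with earlier results of these data known. At least 2-fold higher in SP of H460 were 1 target with the floor, the pseudocount or the minimum of 8, and 4 with the mean of all probe sets, in place of 2, and at least 2-fold lower in H1975 were 2 with the mean of all probe sets, in place of 1. The line difference of BLVRB was -0.20 without A549 and -0.50 without H1975, and that of OSGIN1 was -0.44 without H460. The cause of these changes was not tested.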
